A study of Mus musculus with 39 samples.

Results

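Crk, Ptpn9, Tom1, Adam9, Plk2, Tsc1, Irs1, Zzef1, Pitpnc1 and Vcam1 are genes that earlier work has reported as targets of the microRNA miR-126. They were listed by symbol, with no threshold on these arrays, although earlier results of these data were known when they were chosen. All 10 were found among the 22180 genes with a probe set annotated to a single symbol. Tom1 and Irs1 had 2 such probe sets each, and the one with the higher mean over all arrays was used.

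The levels come from bone marrow of mice with leukaemia caused by AE9a, a shortened AML1-ETO fusion protein of the kind made in t(8;21) leukaemia. In each mouse, cells of the transplanted donor were sorted by the CD45.1 surface marker at the end stage of disease, and their total RNA was hybridised to 1 mouse gene array. The 3 leukaemia arms are labelled AE9a+miR-126 (added miR-126), miR-126KO+AE9a (knockout) and AE9a alone, and every arm carries AE9a. Each arm was followed through passages 1 to 4 of transplantation with 3 mice per arm and passage, and 3 normal control mice (NC) of passage 1 completed the 39 arrays in 13 groups. The labels and notes used here give no strain, age, promoter for AE9a or the added miR-126, or account of how the knockout donors were made. Nor is it stated which donor each recipient received, and p-values therefore cover the variation among recipient mice alone.

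A microRNA lowers the level or the translation of messenger RNAs that carry a match to its seed, usually in their 3' untranslated region. miR-126 lies in an intron of Egfl7 and is known for its roles in endothelium and in blood stem cells. In mouse the mature strand is named miR-126a-3p. It is shown here as the mature strand of the microRNA under study, with bases 2 to 8, the seed, in capitals. Which strand each gene was reported through was not looked up. The hairpin is shown with its mature strand, bases 46 to 67, in capitals, since this is the stretch that the added miR-126 arm was meant to raise. Both are RefSeq sequences on GRCm38.p6, plus strand.
mmu-miR-126a-3p, chr2:26591402-26591423: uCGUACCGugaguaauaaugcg
Mir126a hairpin, chr2:26591357-26591429: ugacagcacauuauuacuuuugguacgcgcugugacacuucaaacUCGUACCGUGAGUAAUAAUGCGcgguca
Untranslated regions of the 10 genes were not used here, so no match to the seed was searched in them.

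One probe set matched Mir126a together with Egfl7, and it read 5.90 to 11.6 on the log2 scale over the 12 arrays with added miR-126. It read 2.77 to 3.15 over the 12 knockout arrays, 2.76 to 3.04 over the 12 AE9a arrays and 2.97 to 3.88 in the 3 normal controls. The added miR-126 was therefore visible on every array of its arm, while AE9a lay so low that this probe set cannot check the knockout. Ptprc, which encodes CD45 and is carried by all white blood cells, read 9.31 to 11.7 over all arrays. A further difference lay in the scale of the arrays. Over all probe sets of an array the log2 values had an SD of 1.43 to 2.03 with added miR-126, 1.78 to 2.04 in the knockout, 1.86 to 2.06 in AE9a and 1.87 to 2.08 in the normal controls. Of the 8 arrays under 1.8, 7 were among the 9 with added miR-126 at passages 2 to 4 (replicates 1 and 2 at passages 2 and 4, and each array at passage 3). The eighth was knockout replicate 3 at passage 2. The results that rest on those passages are therefore given again with the SD of each array in the model, and again without the 8 arrays. Without the 8, passage 3 holds no array with added miR-126, so an average that includes this arm then covers passages 1, 2 and 4 only. At passages 2 and 4 a single array of the arm is then left, whose spread is assumed to be that of the other groups.

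**Figure D1:**
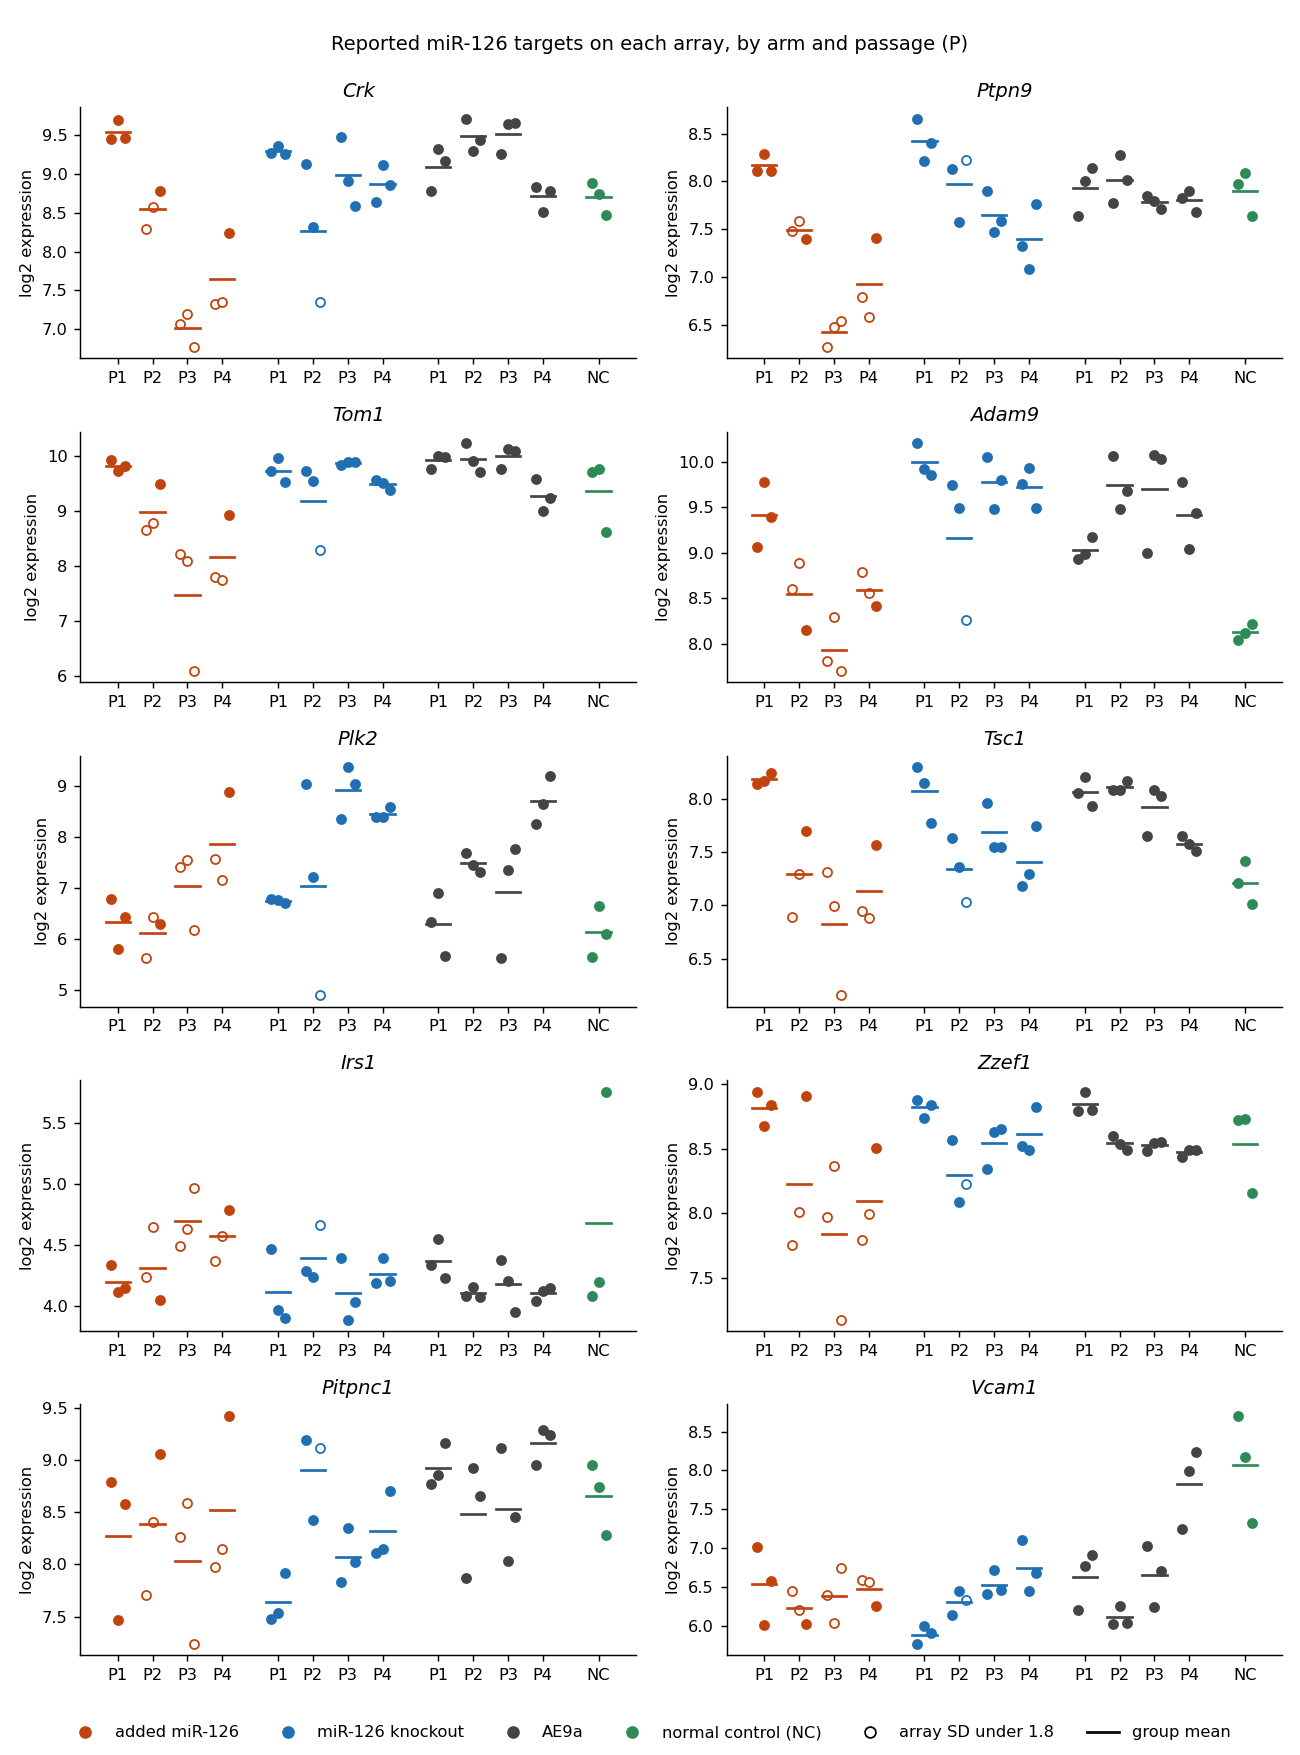
Log2 expression (vertical axis) of each of the 10 genes on each of the 39 arrays, by arm and passage, with 1 point per mouse and a line at each group mean. Open points mark arrays with an SD over probe sets under 1.8. With added miR-126, Crk, Ptpn9, Tom1 and Adam9 sit lower at passages 2 to 4 than at passage 1, and Vcam1 is higher in AE9a at passage 4 and in NC than in every miR-126 arm group.

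With miR-126 added, 8 of the 10 genes were lower than in AE9a when averaged over the 4 passages, and 0 were higher. The largest differences were in the signalling adaptor Crk, the endosomal adaptor Tom1, the membrane protease Adam9 and the tyrosine phosphatase Ptpn9. A fall was also common among all genes, since 24.3% of the 22180 were lower in this comparison and 30.7% higher. It was more common still among bright genes. Of genes with a mean level of 7 or more, a limit chosen after seeing the data, 64.1% were lower and 4.83% higher. Vcam1 (mean 6.65) and Irs1 (mean 4.31) lay under that limit, so these shares do not cover them. The median of the 10 genes was -0.53, beside 0.08 over all genes. With the array SD as a covariate 3 of the 10 passed. Without the arrays of low spread 1 passed, and with all arrays of the same 3 passages 5 passed.

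Crk links activated receptors and focal adhesions to small GTPases through its SH2 and SH3 domains. At passage 1 it read 9.45, 9.70 and 9.47 with added miR-126, against 8.78, 9.32 and 9.17 in AE9a. At passage 3 it read 7.06, 7.20 and 6.77, against 9.26, 9.65 and 9.65. At passage 4 it read 7.33, 7.35 and 8.24, against 8.84, 8.51 and 8.79. The 3 arrays with added miR-126 thus lay above those of AE9a at passage 1, as in 2389 of the 22180 genes. They lay below those of AE9a at passages 3 and 4, as in 5807 and 2991 of all genes. The mean difference over passages was -1.02 ± 0.14 (standard error of the model, n = 12 and 12, 2.02-fold lower, adjusted p = 1.91e-06 in limma). It was -0.54 ± 0.15 with the array SD as a covariate (adjusted p = 0.0142). Over passages 1, 2 and 4 it was -0.52 ± 0.16 with all arrays (adjusted p = 0.0274) and -0.24 ± 0.16 without those of low spread (adjusted p = 0.545). At passage 4 the 1 array of ordinary spread, 8.24, lay below the lowest AE9a array, 8.51, and above both arrays of low spread.

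Ptpn9 is a cytoplasmic tyrosine phosphatase that is found on secretory vesicles. It read 8.11, 8.29 and 8.11 with added miR-126 at passage 1, against 7.64, 8.01 and 8.14 in AE9a. At passage 3 it read 6.27, 6.48 and 6.54, against 7.84, 7.80 and 7.71. At passage 4 it read 6.79, 6.58 and 7.41, against 7.82, 7.90 and 7.68. The arms overlapped at passage 1. They were apart at passages 3 and 4, with added miR-126 lower, as in 5807 and 2991 of the 22180 genes. The mean difference was -0.63 ± 0.10 (1.55-fold lower, adjusted p = 1.23e-05 in limma), and -0.44 ± 0.13 with the array SD as a covariate (adjusted p = 0.0192). Over passages 1, 2 and 4 it was -0.39 ± 0.12 with all arrays (adjusted p = 0.0201) and -0.26 ± 0.14 without those of low spread (adjusted p = 0.413).

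Tom1 is an adaptor of endosomal sorting that takes part in shutting down interleukin 1 and TNF receptor signals. It read 9.92, 9.74 and 9.81 with added miR-126 at passage 1, against 9.78, 10.01 and 9.99 in AE9a. At passage 3 it read 8.23, 8.09 and 6.09, against 9.77, 10.12 and 10.09, and at passage 4 it read 7.81, 7.74 and 8.93, against 9.59, 9.01 and 9.24. The third array of passage 3 was the lowest of all 39. The mean difference was -1.18 ± 0.20 (2.27-fold lower, adjusted p = 2.32e-05 in limma), but -0.34 ± 0.16 with the array SD as a covariate (adjusted p = 0.167). Over passages 1, 2 and 4 it was -0.73 ± 0.23 with all arrays (adjusted p = 0.0253) and -0.30 ± 0.16 without those of low spread (adjusted p = 0.396). The other probe set of Tom1 was lower by less, at -0.64 ± 0.12 (adjusted p = 9.81e-05). Over the 39 arrays the 2 probe sets correlated at r = 0.82.

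Adam9 is a membrane-anchored metalloprotease that sheds other surface proteins. At passage 1 it read 9.06, 9.77 and 9.39 with added miR-126, against 8.93, 8.99 and 9.17 in AE9a. At passage 2 it read 8.60, 8.89 and 8.15, against 10.07, 9.48 and 9.68. At passage 4 it read 8.79, 8.55 and 8.42, against 9.77, 9.04 and 9.43. Every array with added miR-126 at passages 2 and 4 lay under every AE9a array of its passage, while the arms overlapped at passage 1. Of the 22180 genes, 3683 lay apart in this direction at passage 2 and 2991 at passage 4. At both passages the array of ordinary spread, 8.15 and 8.42, read lower than the 2 arrays of low spread beside it. The mean difference was -0.85 ± 0.15 (1.81-fold lower, adjusted p = 3.43e-05 in limma). It was -0.78 ± 0.20 with the array SD as a covariate (adjusted p = 0.00902). Over passages 1, 2 and 4 it was -0.55 ± 0.17 with all arrays (adjusted p = 0.0245) and -0.73 ± 0.18 without those of low spread (adjusted p = 0.0172). Of the 10 genes Adam9 alone passed in each of these fits. It did not pass with cyclic loess (-0.37 ± 0.16, adjusted p = 0.0709), where Crk (-0.54 ± 0.11) and Tom1 (-0.70 ± 0.12) did, nor with each passage counted as 1 unit (adjusted p = 0.116), where none of the 10 did.

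The remaining falls were smaller. Tsc1, which with Tsc2 holds back the growth kinase complex mTORC1, was lower by -0.56 ± 0.12 (adjusted p = 0.000301 in limma). Zzef1, a large zinc finger and EF-hand protein, was lower by -0.35 ± 0.12 (adjusted p = 0.0139), and higher by 0.14, 0.12, 0.11 and 0.06 with the array SD as a covariate, without the arrays of low spread, with cyclic loess and with quantile normalization. The phosphatidylinositol transfer protein Pitpnc1 was lower by -0.47 ± 0.19 (adjusted p = 0.0395), and higher by 0.19 and 0.06 in the first 2 of these. Its call was lost when any of 11 of the 24 arrays was left out, with adjusted p up to 0.0966. The adhesion molecule Vcam1 was lower by -0.40 ± 0.14 (adjusted p = 0.019), and by -0.46 ± 0.19 with the array SD as a covariate (adjusted p = 0.124). Without passage 4 the Vcam1 average was -0.08 (adjusted p = 0.708). For Tsc1 the covariate gave -0.11 ± 0.10, and passages 1, 2 and 4 gave -0.38 ± 0.13 with all arrays and -0.10 ± 0.12 without those of low spread.

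Plk2 and Irs1 did not pass in this average. Plk2, a polo-like kinase induced by stress and by p53, differed by -0.51 ± 0.31 (95% interval -1.14 to 0.13, adjusted p = 0.159). With the array SD as a covariate its sign turned, at 0.40 ± 0.36. Irs1, the docking protein that carries signals of the insulin and IGF1 receptors to PI3K, differed by 0.26 ± 0.13 (95% interval -0.01 to 0.52, adjusted p = 0.0921). Irs1 was dim, with a mean of 4.31 over all arrays, where the other 9 genes averaged 6.65 to 9.33. Its other probe set was higher by 0.46 ± 0.11 (adjusted p = 0.0013), and the 2 correlated at r = 0.50 over the 39 arrays, so the 2 probe sets of Irs1 gave different calls.

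**Figure D2:**
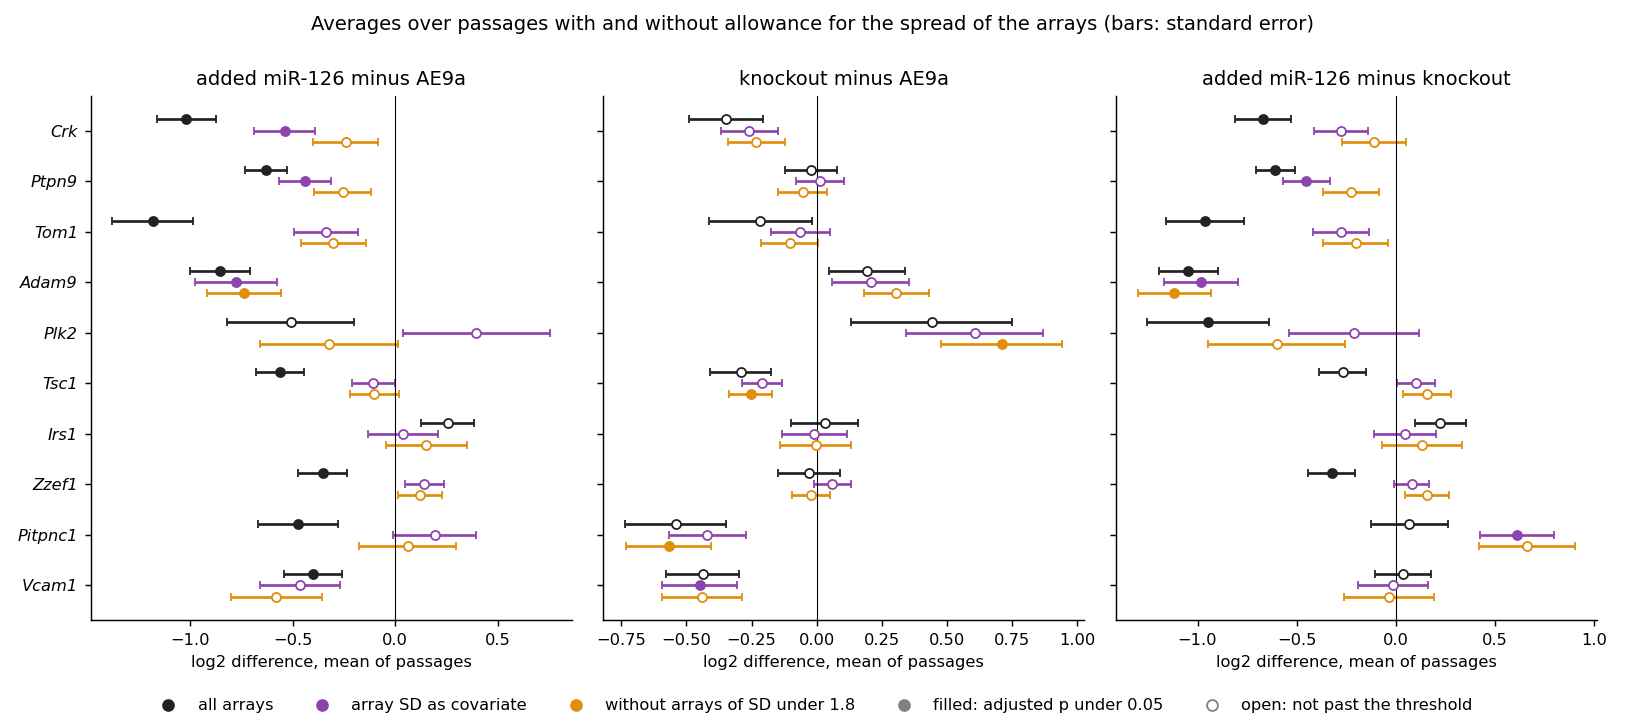
Log2 difference averaged over passages (horizontal axis) for each of the 10 genes in 3 comparisons, with all arrays, with the array SD in the model, and without the 8 arrays of SD under 1.8 (then over passages 1, 2 and 4 where added miR-126 is included). Bars are standard errors and filled points have an adjusted p under 0.05. Adam9 stays near -0.85 in added miR-126 minus AE9a (-0.78 and -0.73 in the other fits), while Tom1 moves from -1.18 to -0.34 and -0.30.

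The knockout differed less from AE9a. In its average 0 of the 10 genes passed in limma, beside 8.17% of all genes. At an unadjusted p under 0.05, a looser limit for which no share of all genes is given, there were 4 (Vcam1, Pitpnc1, Tsc1 and Crk). All 4 of these read lower in the knockout than in AE9a. Vcam1 differed by -0.44 ± 0.14 (95% interval -0.73 to -0.15, adjusted p = 0.0511), and Pitpnc1 by -0.54 ± 0.19 (95% interval -0.94 to -0.14, adjusted p = 0.0866). Vcam1 passed with the array SD as a covariate (-0.45, adjusted p = 0.0343). Without the arrays of low spread Pitpnc1 (-0.57, adjusted p = 0.0221), Tsc1 (-0.25, adjusted p = 0.0482) and Plk2 (0.71 ± 0.23, adjusted p = 0.0475) passed, and Plk2 was the 1 of the 3 that was higher. Adam9 differed by 0.19 ± 0.15 (95% interval -0.11 to 0.49, adjusted p = 0.577). The values for the knockout and for added miR-126 are set against the same AE9a arrays.

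The 2 miR-126 arms were also compared with each other, without AE9a. Added miR-126 was lower than the knockout in 6 of the 10 genes and higher in 0, beside 21.7% of all genes lower. That share makes no allowance for the brightness of the genes. Adam9 read 8.15 to 8.89 with added miR-126 at passage 2, 7.70 to 8.29 at passage 3 and 8.42 to 8.79 at passage 4. In the knockout it read 8.26 to 9.74, 9.48 to 10.05 and 9.49 to 9.93. The ranges overlapped at passage 2, through replicate 3 of the knockout, the array of low spread in that arm. At passages 3 and 4 they did not, and how many of all genes lay apart there was not counted. Over the passages Adam9 differed by -1.05 ± 0.15 (2.06-fold lower, adjusted p = 2.28e-06 in limma), and by -0.98 ± 0.19 with the array SD as a covariate (adjusted p = 0.000305). Over passages 1, 2 and 4 it differed by -0.78 ± 0.17 with all arrays (adjusted p = 0.00188) and by -1.12 ± 0.18 without those of low spread (adjusted p = 0.000233). With cyclic loess it was -0.63 ± 0.16 (adjusted p = 0.00331). Ptpn9 differed by -0.61 ± 0.10 (adjusted p = 2.31e-05), and by -0.45 ± 0.12 with the covariate (adjusted p = 0.00658). Crk (-0.67 ± 0.14), Tom1 (-0.96 ± 0.20), Plk2 (-0.95 ± 0.31, adjusted p = 0.0132) and Zzef1 (-0.32 ± 0.12, adjusted p = 0.0256) passed with all arrays but not with the covariate, where Zzef1 turned to 0.08. Pitpnc1 differed by 0.07 ± 0.19 with all arrays and by 0.61 ± 0.19 with the covariate (adjusted p = 0.0205), where it counted as higher with added miR-126.

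The difference from AE9a was then followed passage by passage. Shares of all genes given beside these counts make no allowance for the brightness of the genes. In the added miR-126 average 64.1% of genes with a mean level of 7 or more were lower, and such a share was not counted at single passages. At passage 1, 0 of the 10 genes passed with added miR-126 in limma, 0 had an unadjusted p under 0.05, and 0.0316% of all genes passed. The Mir126a and Egfl7 probe set already read 8.31 ± 0.16 (SD, n = 3) in that arm, against 2.82 ± 0.09 in AE9a. The point estimates at passage 1 ran from -0.65 for Pitpnc1 to 0.44 for Crk. The interval for Crk was -0.14 to 1.03, for Adam9 -0.22 to 0.98 and for Ptpn9 -0.17 to 0.65, so a fall of the size seen later in these 3 genes lay outside the intervals of passage 1.

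At passage 2 Crk (-0.93 ± 0.28, adjusted p = 0.0387), Adam9 (-1.20 ± 0.29, adjusted p = 0.0125) and Tsc1 (-0.82 ± 0.23, adjusted p = 0.0289) were lower, 3 of 10 beside 5.68% of all genes. Tsc1 read 6.89, 7.30 and 7.70 with added miR-126, against 8.08, 8.08 and 8.17 in AE9a. The array of ordinary spread, 7.70, was the nearest to AE9a. Without the arrays of low spread, with 1 array of added miR-126 against 3 of AE9a and the spread taken from the other groups, Adam9 was at -1.59 ± 0.34 (adjusted p = 0.0123). Crk (-0.70, adjusted p = 0.264) and Tsc1 (-0.42, adjusted p = 0.444) did not pass there. Crk and Tsc1 each lost their call when any of 5 of the 6 arrays was left out, with adjusted p up to 0.216 and 0.237, and Adam9 when AE9a replicate 1 (adjusted p = 0.0897) or added miR-126 replicate 1 (adjusted p = 0.0525) was.

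At passage 3, where all 3 arrays with added miR-126 had a low spread, 6 of 10 genes were lower beside 24.8% of all genes, and the median of all genes was 0.12. Tom1 (-2.53 ± 0.39, 5.77-fold) and Crk (-2.51 ± 0.28, 5.69-fold) were the furthest from AE9a, followed by Adam9 (-1.77 ± 0.29), Ptpn9 (-1.36 ± 0.20), Tsc1 (-1.10 ± 0.23) and Zzef1 (-0.69 ± 0.24). With the array SD as a covariate Crk (-1.54 ± 0.30, adjusted p = 0.00126), Adam9 (-1.61 ± 0.41, adjusted p = 0.0115) and Ptpn9 (-0.97 ± 0.25, adjusted p = 0.0155) passed. Zzef1 turned to 0.31 there, to 0.33 with cyclic loess and to 0.12 with quantile normalization. Its call also rested on replicate 3 of added miR-126, at 7.17 beside 7.97 and 8.36, and without it the difference was -0.36 (adjusted p = 0.234).

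At passage 4, 5 of 10 genes were lower beside 12.0% of all genes, and the median of all genes was 0.13. Vcam1 read 6.59, 6.57 and 6.26 with added miR-126, against 7.25, 7.99 and 8.24 in AE9a. All 3 lay below AE9a, as in 2991 of the 22180 genes, and the array of ordinary spread, 6.26, was the lowest. The difference was -1.35 ± 0.28 (2.55-fold lower, adjusted p = 0.00106 in limma). It was -1.43 ± 0.33 with the array SD as a covariate (adjusted p = 0.00404) and -1.18 ± 0.31 with cyclic loess (adjusted p = 0.00874). Without the arrays of low spread it was -1.56 ± 0.42 (adjusted p = 0.0181), again 1 array against 3 with the spread of the other groups. Ptpn9 (-0.88 ± 0.20, adjusted p = 0.00244), Crk (-1.07 ± 0.28, adjusted p = 0.00807), Tom1 (-1.12 ± 0.39, adjusted p = 0.0369) and Adam9 (-0.83 ± 0.29, adjusted p = 0.0385) passed with all arrays but not with the covariate. Leaving out 1 array ended the call for Adam9 with 5 of 6 arrays (adjusted p up to 0.17), for Tom1 with 4 (up to 0.187) and for Crk with replicates 1 or 2 of added miR-126 (0.0633 and 0.0617).

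In the knockout, 2 of 40 such tests passed. Crk was lower at passage 2, where it read 9.13, 8.32 and 7.35 against 9.71, 9.30 and 9.44 in AE9a (-1.22 ± 0.28, adjusted p = 0.0114), beside 2.82% of all genes. The array at 7.35 was the 1 of low spread. Without it the difference was -0.76 (adjusted p = 0.227 when it alone was left out), and without AE9a replicate 1 the adjusted p was 0.0776. Vcam1 was lower at passage 4, where it read 7.10, 6.45 and 6.68 against 7.25, 7.99 and 8.24 (-1.08 ± 0.28, adjusted p = 0.0472), beside 1.03% of all genes. This call was lost without AE9a replicate 2 or 3 or knockout replicate 2 or 3 (adjusted p = 0.198 to 0.408). At passages 1 and 3, 0 of the 10 passed in limma, beside 2.09% and 1.05% of all genes. At an unadjusted p under 0.05, a looser limit for which no share of all genes is given, there were 4 and 1. Plk2 at passage 3 read 8.35, 9.36 and 9.03 in the knockout, against 5.63, 7.35 and 7.75 in AE9a. The groups did not overlap, as in 6.76% of all genes in that direction, and Plk2 differed by 2.01 ± 0.62 (adjusted p = 0.132).

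**Figure D3:**
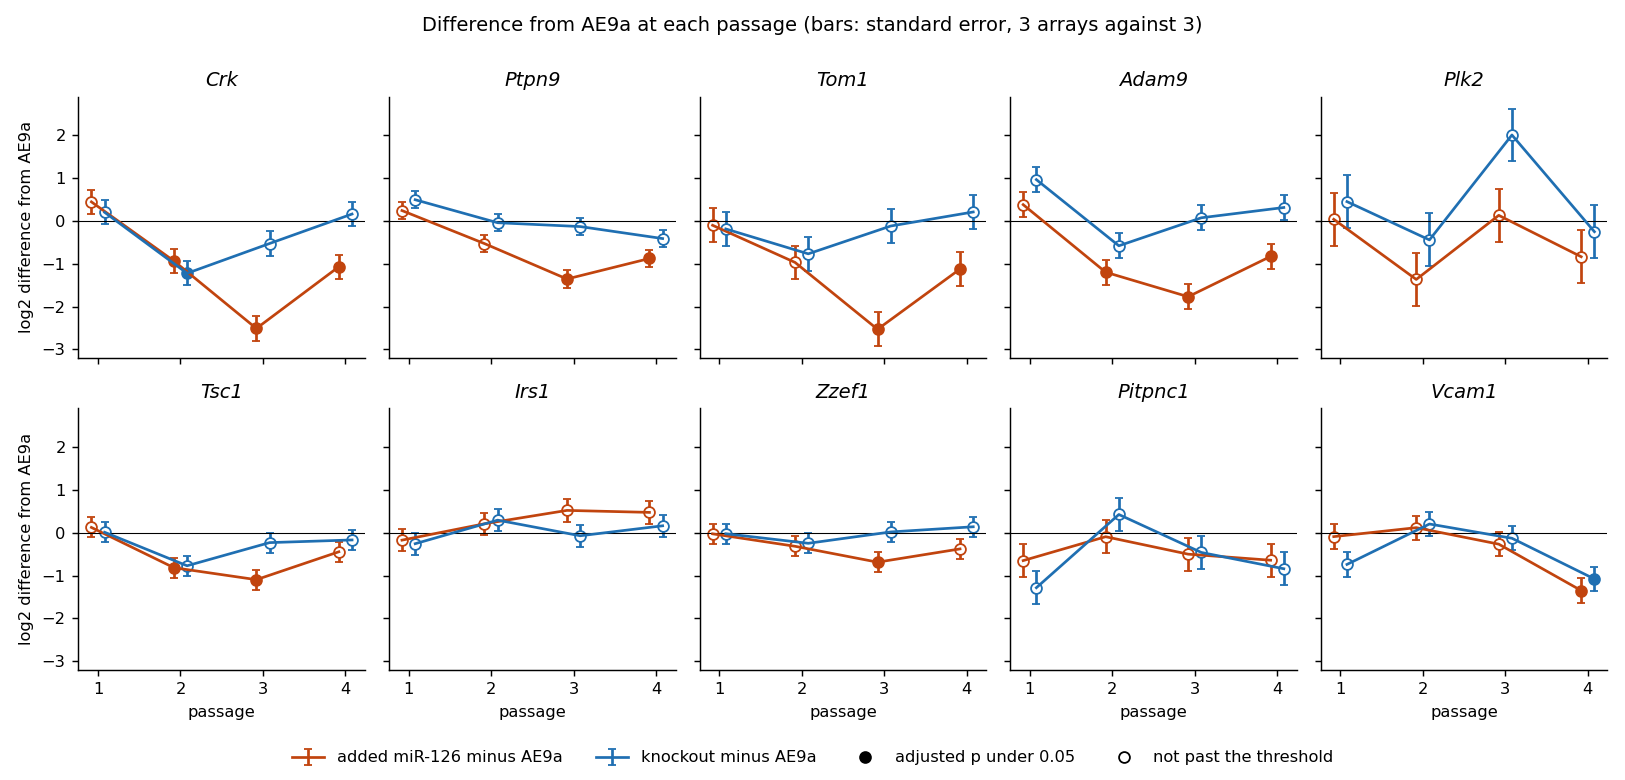
Log2 difference from AE9a (vertical axis) at passages 1 to 4 (horizontal axis) for added miR-126 and the knockout, 1 panel per gene. Bars are standard errors for 3 arrays against 3, and filled points have an adjusted p under 0.05. Crk and Tom1 with added miR-126 are at -2.51 and -2.53 at passage 3, and Vcam1 at passage 4 is at -1.35 with added miR-126, beside -1.08 for the knockout.

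The difference between passages 4 and 1 was tested within each arm. Shares of all genes given here and for the change of an effect again make no allowance for brightness. In AE9a, 2 of 10 genes were higher at passage 4, beside 2.02% of all genes, and 0 were lower. Plk2 read 8.25, 8.65 and 9.20 at passage 4, against 6.33, 6.90 and 5.66 at passage 1 (2.40 ± 0.62, 5.29-fold higher, adjusted p = 0.0259). Vcam1 read 7.25, 7.99 and 8.24 at passage 4, against 6.21, 6.78 and 6.91 at passage 1 (1.19 ± 0.28, 2.28-fold higher, adjusted p = 0.0146). The passages did not overlap in either gene, as in 13.2% of all genes in that direction. The call for Plk2 was lost without AE9a replicates 1 or 3 of passage 1 or 2 or 3 of passage 4 (adjusted p = 0.0765 to 0.121), and that for Vcam1 without replicate 1 of passage 1 or 2 or 3 of passage 4 (adjusted p = 0.076 to 0.135).

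Plk2 was also high at passage 4 in the miR-126 arms. It read 7.57, 7.15 and 8.88 at passage 4 with added miR-126, against 6.78, 5.80 and 6.43 at passage 1 (1.53 ± 0.62, adjusted p = 0.0675). In the knockout it read 8.39, 8.38 and 8.58, against 6.78, 6.76 and 6.69 (1.70 ± 0.62, adjusted p = 0.142). The passages did not overlap in either arm, though neither passed. Of the 22180 genes, 2988 were higher at passage 4 without overlap in the former arm, and 2538 in the latter. The spread of Plk2 within a group was wide, from 4.89 to 9.03 in the knockout at passage 2.

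With added miR-126, 6 of 10 genes were lower at passage 4 than at passage 1, beside 13.2% of all genes: Crk (-1.90 ± 0.28), Tom1 (-1.67 ± 0.39), Ptpn9 (-1.24 ± 0.20), Tsc1 (-1.05 ± 0.23), Adam9 (-0.82 ± 0.29, adjusted p = 0.0398) and Zzef1 (-0.72 ± 0.24, adjusted p = 0.0268). With the array SD as a covariate Crk (-1.32 ± 0.25, adjusted p = 0.000334), Ptpn9 (-1.01 ± 0.21, adjusted p = 0.00101) and Tsc1 (-0.51 ± 0.17, adjusted p = 0.0443) passed. Ptpn9 was also the 1 gene lower at passage 4 in the knockout, where it read 7.33, 7.08 and 7.76, against 8.66, 8.21 and 8.40 at passage 1. There the difference was -1.03 ± 0.20 (2.04-fold lower, adjusted p = 0.00139), beside 2.66% of all genes lower, and -0.99 ± 0.18 with the covariate (adjusted p = 0.000567). In AE9a it differed between those passages by -0.12 ± 0.20 (adjusted p = 0.826). The change of the knockout effect between the passages was -0.91 ± 0.28 for Ptpn9 and did not pass (adjusted p = 0.231). For that change 0 of 10 genes passed in limma, beside 0.428% of all genes. At an unadjusted p under 0.05, a looser limit for which no share of all genes is given, there was 1.

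The same test asked whether the effect of added miR-126 differed between passages 4 and 1. It did in 3 of 10 genes, beside 5.94% of all genes with a change in that direction: Crk (-1.51 ± 0.40, adjusted p = 0.0179), Ptpn9 (-1.12 ± 0.28, adjusted p = 0.0134) and Vcam1 (-1.26 ± 0.40, adjusted p = 0.0419). Adam9 was close, at -1.21 ± 0.42 (adjusted p = 0.0562). With the array SD as a covariate none of the 3 passed, with adjusted p of 0.281 for Crk, 0.139 for Ptpn9 and 0.0991 for Vcam1.

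Each arm at passage 1 was set against the 3 normal controls, which the 3 comparisons share. In each arm 3 of 10 genes passed, and they were Adam9 and Tsc1, both higher, and Vcam1, lower. Of all genes 4.56% were higher and 5.18% lower with added miR-126, 4.88% and 5.91% in knockout leukaemia, and 3.22% and 5.64% in AE9a. Many genes lay apart from the normal controls without overlap. With added miR-126 16.0% of all genes were higher in this way and 14.8% lower. The shares were 16.9% and 14.4% in knockout leukaemia and 16.3% and 15.5% in AE9a. All arrays of these 4 groups had an SD over probe sets above 1.8.

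Adam9 read 9.06, 9.77 and 9.39 with added miR-126, 10.21, 9.92 and 9.85 in knockout leukaemia and 8.93, 8.99 and 9.17 in AE9a at passage 1, against 8.04, 8.11 and 8.22 in the normal controls. Every leukaemia array was higher. The differences were 1.29 ± 0.29 with added miR-126 (2.44-fold, adjusted p = 0.00402), 1.87 ± 0.29 in the knockout (3.66-fold, adjusted p = 4.91e-05) and 0.91 ± 0.29 in AE9a (1.87-fold, adjusted p = 0.0487). The call in AE9a was lost when any one of its 6 arrays was left out (adjusted p = 0.085 to 0.13), and the calls in the miR-126 arms were not. Over the 13 groups the lowest Adam9 means were 7.93 ± 0.32 (SD, n = 3) with added miR-126 at passage 3 and 8.12 ± 0.09 in the normal controls. These neighbours differed by less than the larger SD.

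Tsc1 read 8.13, 8.17 and 8.24 with added miR-126, 8.29, 8.15 and 7.77 in knockout leukaemia and 8.05, 8.20 and 7.93 in AE9a, against 7.21, 7.41 and 7.02 in the normal controls. No leukaemia array overlapped them. The differences were 0.97 ± 0.23 (adjusted p = 0.00621), 0.86 ± 0.23 (adjusted p = 0.0136) and 0.85 ± 0.23 (adjusted p = 0.0201), in that order of arms. In AE9a the call was lost without AE9a replicates 1 or 2 or normal control replicates 1 or 3 (adjusted p = 0.0573 to 0.0883). In the knockout it was lost without knockout replicates 1 or 2 or normal control replicate 3 (adjusted p = 0.058 to 0.0812).

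Vcam1 is the ligand of the integrin alpha 4 beta 1 and is best known from endothelium, stroma and tissue macrophages. It read 7.02, 6.02 and 6.58 with added miR-126, 5.77, 5.997 and 5.91 in knockout leukaemia and 6.21, 6.78 and 6.91 in AE9a, against 8.70, 8.17 and 7.33 in the normal controls. Every leukaemia array was lower. The differences were -1.53 ± 0.28 with added miR-126 (2.88-fold lower, adjusted p = 0.000516), -2.18 ± 0.28 in the knockout (4.52-fold lower, adjusted p = 3.32e-06) and -1.43 ± 0.28 in AE9a (2.70-fold lower, adjusted p = 0.00142). These 3 calls held without any one array. Among the 13 group means Vcam1 stood highest in AE9a at passage 4 (7.82 ± 0.52) and in the normal controls (8.07 ± 0.69), which differed by less than their SD. The next mean, 6.74 ± 0.33 in the knockout at passage 4, was lower than that of AE9a at passage 4 by more than the larger SD.

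**Figure D4:**
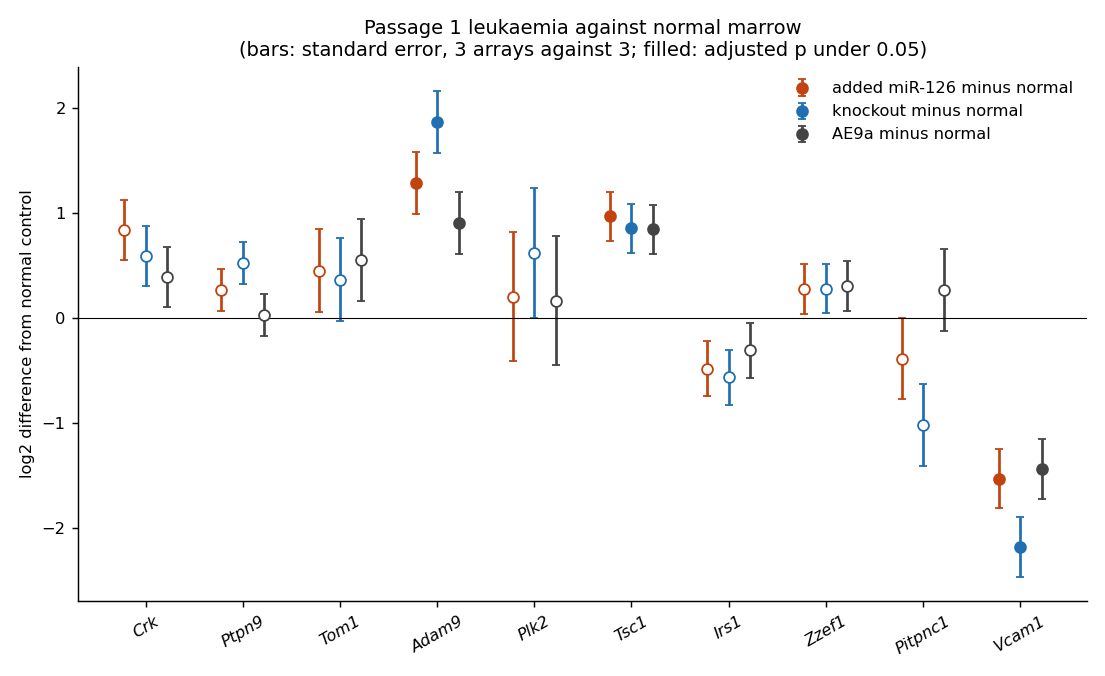
Log2 difference from the 3 normal controls (vertical axis) at passage 1 for each gene in the 3 arms, with standard errors and filled points for an adjusted p under 0.05. Adam9 (0.91 to 1.87) and Tsc1 (0.85 to 0.97) lie above 0 and Vcam1 (-1.43 to -2.18) below 0 in all 3 arms.

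The sorted cells were a mixture, and a lower level of a gene can mean fewer cells of a type or less RNA per cell, which these bulk values cannot tell apart. Marker lists are given as the mean log2 level of the list on each array. No marker can read 0 on this scale, whose lowest value was 2.11. The 11 macrophage markers averaged 6.55 to 6.75 over the arrays of added miR-126 at passage 1, 6.31 to 6.77 in the knockout and 6.38 to 6.47 in AE9a, against 6.31 to 6.84 in the normal controls. In each arm 1 marker was higher than in the normal controls, and 1, 1 and 0 were lower, beside the shares of all genes given above for these comparisons. At passage 4 they averaged 5.93 to 6.09 with added miR-126 and 7.12 to 7.39 in the knockout, against 6.83 to 7.85 in AE9a. Between passages 4 and 1 of AE9a 2 of the 11 were higher, beside 2.02% of all genes. They were C1qb (3.93 ± 0.67) and C1qc (2.67 ± 0.52), which encode complement components made by macrophages. With added miR-126 at passage 4, 5 of the 11 were lower than in AE9a and 1 was higher, beside 12.0% of all genes lower and 12.7% higher. The higher one was Cd163, a scavenger receptor named here after its value was seen (4.35 ± 0.67, adjusted p = 2.38e-05).

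The 10 endothelium and stroma markers averaged 4.97 to 5.34 with added miR-126 and 4.996 to 5.30 in the knockout, against 4.97 to 5.21 in AE9a and 5.09 to 5.38 in the normal controls, over passages 1 and 4. The 5 T and NK cell markers averaged 5.11 to 5.38 with added miR-126 and 4.82 to 5.16 in the knockout at passage 4, against 6.20 to 7.30 in AE9a. In the 3 normal controls they averaged 5.87 to 7.02. The members of this list did not move alike. Between passages 4 and 1 of AE9a the T cell genes Cd8a (2.51 ± 0.38), Cd3e (2.25 ± 0.41) and Cd3g (2.66 ± 0.50) were higher, while the NK cell genes Klrb1c (-0.35 ± 0.30) and Ncr1 (-0.04 ± 0.36) did not pass. With added miR-126 at passage 4 Klrb1c was higher than in AE9a by 2.35 ± 0.30 (adjusted p = 2.18e-06). These values were chosen for print after they were seen. The 4 measured B cell markers averaged 6.03 to 6.29 in AE9a at passage 4 and 8.19 to 9.07 in the normal controls. The 5 measured erythroid markers averaged 4.72 to 5.03 with added miR-126, 6.23 to 7.15 in the knockout and 4.89 to 4.97 in AE9a at passage 1, against 7.24 to 8.13 in the normal controls. The part of these cells in the results was not tested.

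Marker lists also differed beside the falls with added miR-126. At passage 4 the 8 neutrophil markers averaged 6.10 to 6.52 with added miR-126 and 9.32 to 10.03 in the knockout, against 10.7 to 11.3 in AE9a. At passage 1, where none of the 10 genes passed, they averaged 9.34 to 11.3 with added miR-126, against 11.3 to 11.4 in AE9a. All 8 were lower in the added miR-126 average, beside 24.3% of all genes and 64.1% of those with a mean level of 7 or more. All 8 were lower in the knockout average too, beside 5.29% and 10.6%. At passage 2 the neutrophil markers averaged 9.45 to 11.4 with added miR-126, against 9.66 to 10.9 in AE9a, with overlap. At that passage, where Crk, Adam9 and Tsc1 were lower, the macrophage markers averaged 5.91 to 6.22 with added miR-126, against 6.82 to 7.12 in AE9a. The erythroid markers averaged 5.11 to 5.38 with added miR-126, against 5.81 to 7.31 in AE9a, so neither list overlapped between the arms. The 5 progenitor markers averaged 8.52 to 9.12 with added miR-126 at passage 4, against 7.65 to 7.75 in AE9a. Of these Myb (2.43 ± 0.41), Flt3 (3.18 ± 0.63) and Cd34 (1.87 ± 0.51) were higher and the receptor Kit was lower (-1.23 ± 0.43, adjusted p = 0.0346), and Meis1 was at -0.71 ± 0.27 (adjusted p = 0.0506). Their part in the falls was not tested.

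Other genes around the 10 were counted from lists. Their counts stand beside 24.3% of all genes lower and 30.7% higher with added miR-126, or 64.1% and 4.83% of genes with a mean level of 7 or more. In the knockout average 5.29% of all genes were lower and 2.88% higher. Of 16 further reported miR-126 targets 3 were higher and 7 lower in the added miR-126 average, with a median of -0.17 beside 0.08 for all genes. The smallest adjusted p was that of Rgs16, a regulator of G protein signalling, at -1.38 ± 0.19 (adjusted p = 1.54e-06), which was lower in the knockout average too, at -1.44 ± 0.19 (adjusted p = 5.83e-06). In that average 1 of the 16 was higher, the Wnt receptor Fzd7 (0.51 ± 0.12, adjusted p = 0.00546), and 2 were lower. With added miR-126 at passage 1 none of the 16 passed in limma.

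Around Irs1 and Tsc1, 15 of 22 measured genes of the PI3K and mTORC1 pathway were lower with added miR-126 and 0 higher, with a median of -0.47, a share near the 64.1% of the brighter genes. Igf1r, a receptor that signals through Irs1, was at -2.18 ± 0.25 (adjusted p = 6.91e-08), the kinase Akt2 at -0.47 ± 0.07, the transcription factor Foxo1 at -1.13 ± 0.16 and the mTORC1 activator Rheb at -0.78 ± 0.12. In the knockout 5 of the 22 were lower and 0 higher, Igf1r among them at -1.30 ± 0.25 (adjusted p = 0.000588) and the stress sensor Sesn2 at -1.18 ± 0.21 (adjusted p = 0.000222). With added miR-126 the genes that fell thus included the activator Rheb and the inhibitor Tsc1. Tsc1 was at -0.11 ± 0.10 with the array SD as a covariate (adjusted p = 0.589 in limma).

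Of 11 measured partners of Crk 7 were lower with added miR-126 and 0 higher, again near that share, among them the docking protein Gab1 (-1.22 ± 0.15, adjusted p = 1.80e-07), the ubiquitin ligase Cbl (-0.79 ± 0.15) and Rapgef1 (-0.67 ± 0.14), the exchange factor that binds Crk. In the knockout 2 were higher and 2 lower: Dock1 (0.69 ± 0.16) and Cblb (0.56 ± 0.15), and Pxn (-0.54 ± 0.11) and Gab1 (-0.61 ± 0.15). Of 10 adhesion and shedding genes 8 were lower with added miR-126, with Adam8 at -2.47 ± 0.30, Adam10 at -0.87 ± 0.15 and Adam17 at -0.86 ± 0.15. In the knockout Itga4, which encodes the integrin subunit that binds Vcam1, was higher by 0.78 ± 0.19 (adjusted p = 0.0055) and Icam2 by 0.50 ± 0.15, while Adam8 was lower (-1.75 ± 0.30). Of 13 measured relatives of the 10 genes 10 were lower and 1 higher with added miR-126, with Ptpn1, another tyrosine phosphatase, at -1.36 ± 0.13 (adjusted p = 5.00e-09). In the knockout 2 were lower, Tollip (-0.32 ± 0.09) and Plk3 (-0.97 ± 0.29). These counts make no allowance for the spread of the arrays or the brightness of the genes.

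Among themselves the 10 genes did not vary alike. Over the 13 group means, which share the same arrays, Crk and Tom1 correlated at r = 0.97, and at 0.88 over the 10 groups left without added miR-126 at passages 2 to 4. Crk and Tsc1 correlated at 0.90, and at 0.86 over those 10 groups. For Crk and Ptpn9 the values were 0.85 and 0.31, and for Ptpn9 and Tom1 0.86 and 0.16, so their likeness lay largely in the 3 groups left out. Adam9 and Irs1 ran opposite, at -0.91 and -0.92. Irs1 was dim, its group means spanned only 0.59, and no gap between neighbouring means exceeded the larger SD. Its high mean in the normal controls came from 1 array, at 5.75 beside 4.08 and 4.19. With Crk and Tom1, Plk2 and Vcam1 correlated at r between -0.10 and 0.02 over the 13 groups. Over the 10 groups Vcam1 was at -0.42 with Crk and -0.51 with Tom1, and Plk2 at -0.23 and -0.16.

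Outside the 10, the gene most like Crk over the 13 group means was Smad2 (r = 0.99), a mediator of TGF-beta signals, and the gene most like Tom1 was Syk (0.98), a tyrosine kinase of immune receptors. For Tsc1 it was Rnf6 (0.98), for Zzef1 Swt1 (0.98), for Irs1 Gpm6b (0.97), for Ptpn9 Kif1b (0.97) and for Adam9 AI504432 (0.97). Plk2 was most like Jazf1 (0.92), Vcam1 most like Tonsl (0.93) and Pitpnc1 most like Serpinb1a (0.84). Pitpnc1 varied widely within groups. At passage 1 it read 7.47 to 8.79 with added miR-126 and 7.47 to 7.91 in the knockout, against 8.77 to 9.16 in AE9a. There the knockout lay below AE9a, as in 11.7% of all genes, and did not pass (-1.28 ± 0.39, adjusted p = 0.0818).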

How the data were processed

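The authors deposited 27037 probe sets on the log2 scale for each of 39 arrays, made with RMA and Partek 6.0 per the submitters' processing notes. Any filter or batch step is not given there. The platform annotation gave 1 symbol to 23521 probe sets, several to 1814 and none to 1702. With the probe set of highest mean per gene, 22180 genes were tested. Array, passage and replicate came from the titles. The 10 genes, the lists and the alternatives were chosen with earlier results of these data known.

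All arrays entered 1 model of 13 group means in limma 3.58.1 (R 4.3.3), which left 26 residual degrees of freedom. Moderated p-values were adjusted by the Benjamini-Hochberg method over all 22180 genes of a comparison, with a threshold of 0.05. A ± after a log2 difference is the model's standard error. The median standard error was 0.222 for 3 arrays against 3 and 0.111 for averages over passages. The fit was tested on simulated data that held no difference in array spread between arms, so that test does not cover the arrays of low spread. Alternatives were the compared groups alone, a replicate block, a trended and robust prior, dim genes left out, every probe set kept, array weights, normalization by cyclic loess or quantiles, the array SD as a covariate, the 8 arrays of SD under 1.8 left out, each array or passage left out, and each passage as 1 unit. All 10 genes are named. From each list up to 4 genes with the smallest adjusted p in each average could be named, and for likeness the 3 genes with the highest correlation over group means, of which 1 is given. For a replicate pairing, 36 pairs of arrays with the same number in 2 arms of a passage were correlated: r ran from -0.315 to 0.635 and 11 were over 0.1, so the numbers were not taken as pairs.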

Additional observations from a re-analysis of the deposited data

Results flagged for a closer look

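The effect of added miR-126, measured as added miR-126 minus AE9a, differed between passages 4 and 1 for 3 of the 10 genes by a test of the change itself in limma. For Crk the change was -1.51 ± 0.40, with an effect of -1.07 at passage 4 and 0.44 at passage 1. For Ptpn9 it was -1.12 ± 0.28, with -0.88 and 0.24. For Vcam1 it was -1.26 ± 0.40, with -1.35 and -0.09. The Vcam1 effect at passage 4 sat beside a higher level of AE9a itself (7.82 at passage 4 and 6.63 at passage 1), while the level with added miR-126 was 6.47 and 6.54. The calls were lost without AE9a replicate 1 of passage 1 (adjusted p = 0.0684 for Crk, 0.0595 for Ptpn9 and 0.146 for Vcam1), and without replicate 2 of added miR-126 at passage 4 (0.064, 0.0599 and 0.0835). Crk also lost its call without replicate 1 of added miR-126 at passage 4 (0.0652), and Vcam1 lost its call with 7 of its 12 arrays left out in turn. Replicates 1 and 2 of added miR-126 at passage 4 had a low spread, and with the array SD as a covariate none of the 3 passed.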

How the results depend on the processing

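Counts of the 10 genes that passed moved with several settings, and they take either direction. In added miR-126 minus knockout the 6 in the report were all lower. With the covariate Adam9 and Ptpn9 passed there as lower, and Pitpnc1 passed as higher (0.61). Leaving out the low-spread arrays limits each average that includes added miR-126 to passages 1, 2 and 4. Of the 8 falls in the added miR-126 average, 2 passed with cyclic loess, 5 with quantile normalization, 3 with the array SD as a covariate, 1 without the arrays of low spread, 5 without passage 3 and 0 with passage as the unit. For added miR-126 minus knockout (6 in the report) the counts were 3 with cyclic loess, 3 with the covariate, 1 without those arrays, 2 without passage 3 and 0 with passage as the unit. For the knockout average (0 in the report) they were 3 with the compared groups alone, 1 with dim genes left out, 4 with array weights, 2 with cyclic loess, 1 with the covariate, 3 without the arrays of low spread, and 1, 2 and 1 without passages 1, 2 and 3.

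At single passages, 14 of 40 tests passed with added miR-126. The count was 9 with the compared groups alone, 24 with array weights, 3 with cyclic loess, 7 with quantile normalization, 4 with the covariate and 2 of 30 without the arrays of low spread. In the knockout 2 passed, and 1 with the replicate number as a block, 12 with array weights, and 4 with the covariate, as without the low-spread arrays. Against normal controls 9 passed, and 14 with array weights and 15 with the covariate. Between passages 4 and 1, 9 passed, and 18 with array weights. For the change of an effect 3 passed, and 11 with array weights, but 0 with cyclic loess, quantile normalization, the covariate or the arrays of low spread left out.

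Some differences changed sign. With cyclic loess Zzef1 was at 0.11 in added minus AE9a, 0.086 in added minus knockout, 0.024 in knockout minus AE9a and 0.33 in added minus AE9a at passage 3, Ptpn9 at 0.012 in the knockout and Tsc1 at 0.079 in added minus knockout. With quantile normalization Zzef1 was at 0.056, 0.0023, 0.054 and 0.12 in the same order, with Ptpn9 at 0.017 and Irs1 at -0.0024 in the knockout. With the covariate Zzef1 was at 0.14, 0.081, 0.061 and 0.31, Plk2 at 0.40 and Pitpnc1 at 0.19 in added minus AE9a, Ptpn9 at 0.012 and Irs1 at -0.0090 in the knockout, and Tsc1 at 0.10 and Vcam1 at -0.013 in added minus knockout. Without the arrays of low spread Zzef1 was at 0.12 and Pitpnc1 at 0.061 in added minus AE9a, Irs1 at -0.0033 in the knockout, and Tsc1 at 0.16, Zzef1 at 0.16 and Vcam1 at -0.035 in added minus knockout. With array weights Irs1 was at -0.0014 in the knockout. Without passage 1 Adam9 was at -0.064 in the knockout, with Pitpnc1 at -0.12 and Vcam1 at -0.16 in added minus knockout. In the knockout Irs1 was at -0.057 and Zzef1 at 0.043 without passage 2, Ptpn9 at 0.014 and Plk2 at -0.081 without passage 3, and Ptpn9 at 0.11 and Irs1 at -0.013 without passage 4. The cause was not tested.

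Leaving out 1 array at a time gave 7 to 8 passes for the added miR-126 average, 0 to 1 for the knockout average, 5 to 7 for added minus knockout, 11 to 16 for added miR-126 and 0 to 4 for the knockout at single passages, 6 to 9 against normal controls, 7 to 9 between passages and 0 to 5 for the change of an effect. Ptpn9 (-0.069 to 0.028) and Irs1 (-0.014 to 0.058) in the knockout, and Pitpnc1 (-0.045 to 0.17) and Vcam1 (-0.021 to 0.10) in added minus knockout, changed sign in some of these fits. The replicate block changed 3 calls of single genes, all lost: Vcam1 in the knockout at passage 4, Adam9 in AE9a against normal controls and the change of the Vcam1 effect. The number of arrays, 3 in a group, limits the precision.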
